A study of Arabidopsis thaliana with 24 samples.

Results

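The 36 genes described here are 28 Aux/IAA genes of Arabidopsis and 8 AUXIN RESPONSE FACTOR genes. The latter are ARF1, ARF2, ARF5, ARF7, ARF9, ARF11, ARF18 and ARF19, listed as ARFs without miRNA sites. All 36 were chosen by locus from 33341 loci counted. Their mRNA was measured by sequencing in rh27-2 root tips, WT root tips, rh27-2 shoot apices and WT shoot apices, with 3 libraries in each of the 4 groups. rh27-2 is a mutant line of RH27, a gene for a DEAD-box RNA helicase, and WT is Col-0. All groups were untreated seedlings of the same age, 5 days after germination, raised on plates with sucrose. The labels give neither the kind of lesion in rh27-2 nor the number of plants per library. They do not state that replicates were grown apart, so p-values measure the spread between these libraries, which may be technical.

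Aux/IAA proteins are short-lived repressors of auxin-regulated genes. They bind ARF transcription factors on DNA and bring in TOPLESS co-repressors. Auxin joins an Aux/IAA protein to an F-box receptor of the TIR1/AFB family, the repressor is then ubiquitinated and degraded, and the ARF is released. Many Aux/IAA genes are themselves switched on by auxin, which makes them a feedback loop. ARF5, ARF7 and ARF19 are activators, while ARF1, ARF2, ARF9, ARF11 and ARF18 are classed as repressors. IAA20, IAA30, IAA31, IAA32, IAA33 and IAA34 are non-canonical members that lack all or part of the degron through which the receptors act.

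Libraries held 15603992 to 20380109 counts. Levels are TMM-scaled CPM, read counts divided by the library's total with a correction for its composition, and no level is compared between genes because gene length was not taken into account. RH27 itself stood at 12.6, 14.9 and 13.7 CPM in rh27-2 root tips, against 25.5, 24.5 and 21.8 CPM in WT root tips, a log2 fold change of -0.80 (SE 0.094, edgeR adjusted p = 8.49e-06). In shoot apices it stood at 25.8, 26.8 and 24 CPM in rh27-2, against 34.6, 26.8 and 30.8 CPM in WT, which was not called (-0.33, edgeR adjusted p = 0.0712). The 7 root tip markers summed to 155 to 173 CPM in rh27-2 root tips and 131 to 155 CPM in WT root tips, and to 57.4 to 66.2 CPM in rh27-2 shoot apices and 73.0 to 79.9 CPM in WT shoot apices. PLT1 and RGF1 had no count in WT shoot apices, and RGF1 had none in rh27-2 shoot apices. Of these 7 markers, 2 had enough counts to be tested in shoot apices. The 7 shoot apex markers summed to 180 to 233 CPM in rh27-2 shoot apices and 35.9 to 62.4 CPM in WT shoot apices, and to 17.7 to 20.8 CPM in rh27-2 root tips and 5.17 to 6.23 CPM in WT root tips, where WUS, CLV3 and UFO had no count. Tissues are bulk samples, so fewer cells of a type and less RNA per cell cannot be told apart. The spread between replicates was far wider in shoot apices (biological coefficient of variation 0.202) than in root tips (0.0735).

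In root tips the genes of both families moved in both directions. A gene was called where edgeR's quasi-likelihood test gave a Benjamini-Hochberg adjusted p under 0.05 over all loci tested. Of the 36 genes, 33 had enough counts to be tested in root tips, of which 12 were called higher and 9 lower in rh27-2. Over all 19443 loci tested there, 31.3% were called higher and 30.8% lower, so the members' shares of 36.4% and 27.3% lie near the background. Their median log2 fold change was 0.02, against 0.01 over all loci. The members with the widest changes were ARF5, IAA26 and IAA27 upward, and IAA3 and IAA6 downward.

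ARF5 (AT1G19850), also called MONOPTEROS, is the activator needed for the embryonic root and for vascular tissue. It stood at 109, 117 and 121 CPM in rh27-2 root tips, against 25.1, 27.2 and 31.4 CPM in WT root tips. Every rh27-2 library lay above every WT library by a wide margin. The log2 fold change was 2.05 (SE 0.078, edgeR adjusted p = 5.85e-10), a 4.14-fold rise and the widest upward change among the members in root tips. In shoot apices ARF5 was not called, at 89.3, 91.8 and 103 CPM in rh27-2 against 101, 97.1 and 77.0 CPM in WT, with groups that overlap (-0.02, SE 0.13, edgeR adjusted p = 0.933). The 2 effects differed by 2.01 on the log2 scale (edgeR adjusted p = 6.77e-06). The shoot apex marker sum, given above, was also higher in rh27-2 root tips, and its part in the ARF5 result was not tested. The locus that overlaps ARF5, AT1G19860, was not called in root tips (0.01, edgeR adjusted p = 0.92).

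Both other activators rose in shoot apices. ARF7 (AT5G20730), which acts in lateral root initiation and tropic growth, stood at 126, 114 and 113 CPM in rh27-2 shoot apices, against 75.1, 74.2 and 82.1 CPM in WT shoot apices. In root tips it stood at 88.4, 88.7 and 89.7 CPM in rh27-2, against 101, 98.3 and 95.5 CPM in WT. The groups did not overlap in either tissue, and the gene was called higher in shoot apices (0.55, edgeR adjusted p = 0.00814) and lower in root tips (-0.15, edgeR adjusted p = 0.0156). The root value was not called with total-count scaling (-0.06, adjusted p = 0.314), nor with DESeq2, with an edgeR fit over all 12 libraries or without WT replicate 1. ARF19 (AT1G19220), the closest relative of ARF7, stood at 79.4, 66.4 and 80.6 CPM in rh27-2 shoot apices, against 46.9, 48.1 and 47.4 CPM in WT. That was a rise of 0.61 (edgeR adjusted p = 0.00672), while root tips gave -0.02 (edgeR adjusted p = 0.751). The overlapping neighbours moved too: CPN20, at the ARF7 locus, fell by 1.17 and AT1G19210, at the ARF19 locus, rose by 0.86 in rh27-2 shoot apices.

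Among the repressor ARFs, ARF11 (AT2G46530) moved in opposite directions in the 2 tissues. It stood at 3.30, 3.36 and 3.48 CPM in rh27-2 root tips, against 1.90, 2.00 and 2.54 CPM in WT root tips (0.66, SE 0.20, edgeR adjusted p = 0.0102). In shoot apices it stood at 11.2, 7.20 and 9.82 CPM in rh27-2, against 18, 18.7 and 22.1 CPM in WT (-1.13, SE 0.20, edgeR adjusted p = 0.00523). Neither pair of groups overlapped. ARF9 (AT4G23980) was lower in rh27-2 root tips, at 27.2, 30.8 and 27.4 CPM against 44.0, 40.9 and 36.8 CPM in WT (-0.52, edgeR adjusted p = 0.000105). In shoot apices ARF9 was not called (-0.39, edgeR adjusted p = 0.0754), although its groups did not overlap. Total-count scaling, the fit over all 12 libraries and leaving out WT replicate 2 called it lower there, while 9 of 12 alternative fits did not. The difference between the 2 effects was not called (-0.18, edgeR adjusted p = 0.415). ARF2 (AT5G62000), a repressor known from seed size and ageing, was called lower in rh27-2 shoot apices, at 395, 415 and 439 CPM against 492, 563 and 571 CPM in WT (-0.44, edgeR adjusted p = 0.0336). That call was lost on leaving out any one of 5 of the 6 libraries, with adjusted p of 0.0605 to 0.118. ARF1 (AT1G59750) and ARF18 (AT3G61830) were called in neither tissue.

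The Aux/IAA genes that rose in rh27-2 root tips numbered 10 of the 25 tested, or 40%, against 31.3% of all loci tested there. IAA26 (AT3G16500), known as a phytochrome-associated protein, stood at 28.9, 24.6 and 26.5 CPM in rh27-2 root tips, against 10.9, 9.42 and 9.31 CPM in WT root tips. Its rise of 1.42 (SE 0.099, edgeR adjusted p = 8.00e-08) was clear of any overlap. In shoot apices IAA26 had 53.0, 62.6 and 59.8 CPM in rh27-2 and 38.8, 53.4 and 37.3 CPM in WT, which overlap (0.38, edgeR adjusted p = 0.0996). With the replicate number as a block, a fit that takes libraries of one number as pairs, this value was called (0.39, edgeR adjusted p = 0.0385). It was also called in the fit over all 12 libraries and without WT replicate 2, while 9 of 12 alternative fits did not call it.

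IAA27 (AT4G29080), another phytochrome-associated protein, rose in both tissues. It stood at 19.1, 18.7 and 18.6 CPM in rh27-2 root tips, against 9.12, 6.68 and 6.41 CPM in WT root tips (1.33, SE 0.13, edgeR adjusted p = 1.24e-06). Shoot apices gave 59.9, 54.3 and 47.1 CPM in rh27-2, against 23.3, 19.7 and 23.7 CPM in WT (1.21, SE 0.14, edgeR adjusted p = 0.00131). Neither pair of groups overlapped, and the difference between the effects was 0.06 with an SE of 0.20 (edgeR adjusted p = 0.823). The locus that overlaps IAA27, AT4G29070, was lower in rh27-2 shoot apices (-0.85, edgeR adjusted p = 0.00928) and not called in root tips (0.40, edgeR adjusted p = 0.0766). The relatives of IAA27, IAA8 (AT2G22670) and IAA9 (AT5G65670), moved less in root tips, with log2 fold changes of -0.34 and 0.20. Both were called, though IAA9 was not in the fit over all 12 libraries (edgeR adjusted p = 0.108). In shoot apices IAA9 had 364, 313 and 296 CPM in rh27-2 and 262, 215 and 233 CPM in WT, groups that do not overlap, yet it missed the threshold (0.39, edgeR adjusted p = 0.0525). The fit with the replicate block called it (edgeR adjusted p = 0.0393). So did DESeq2, size factors by median of ratios and the fit over all 12 libraries, while 8 of 12 alternative fits did not.

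**Figure D1:**
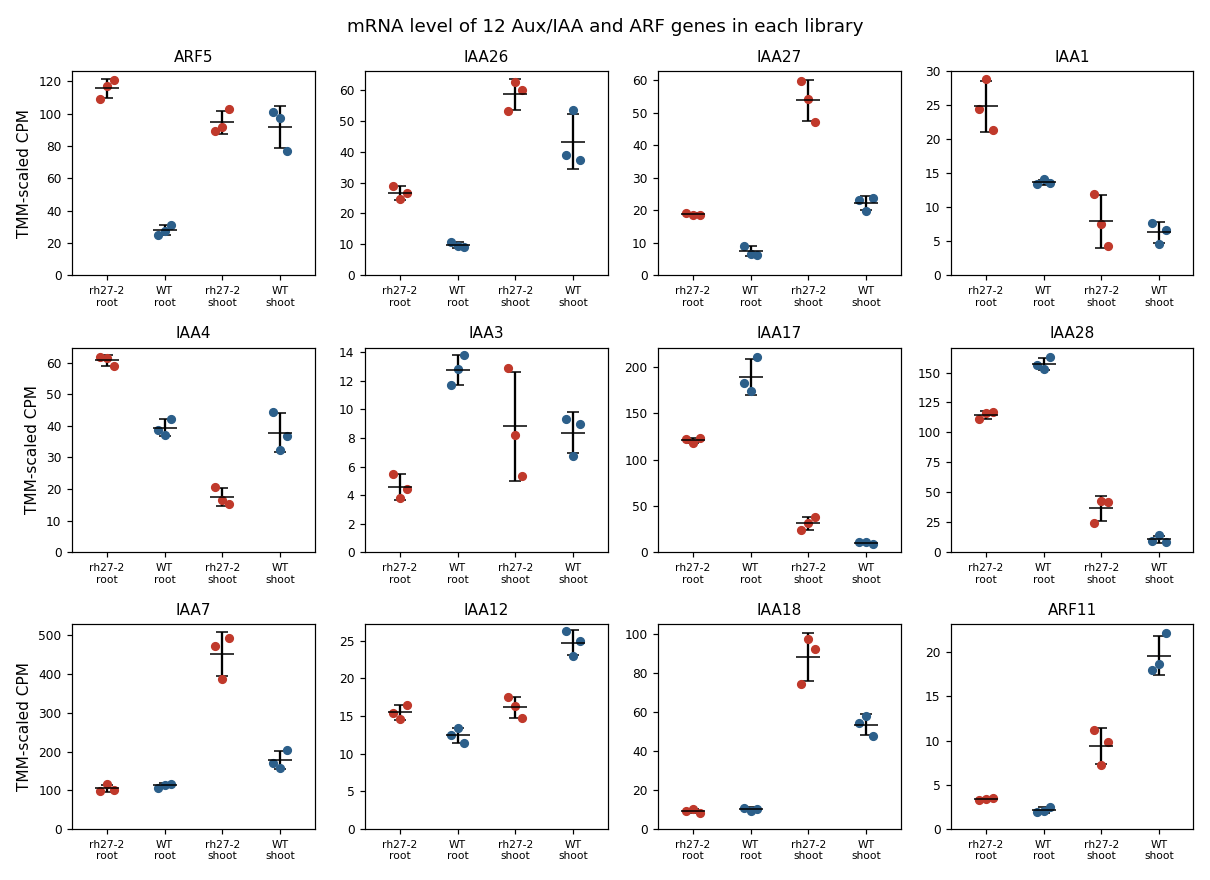
Level of 12 of the genes in every library, as TMM-scaled CPM on a linear axis from 0. Points are libraries (rh27-2 red, WT blue), horizontal bars are means and whiskers SD (n = 3). ARF5 is high in rh27-2 root tips and in both kinds of shoot apices and low only in WT root tips, where it reached at most 31.4 CPM.

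The 4 genes of the IAA1 to IAA4 group are rapidly induced by auxin. In root tips 3 of them rose and 1 fell. IAA1 (AT4G14560) stood at 24.4, 28.8 and 21.3 CPM in rh27-2 root tips, against 13.4, 14.1 and 13.5 CPM in WT root tips (0.86, edgeR adjusted p = 1.82e-05). IAA2 (AT3G23030) stood at 87.3, 82.6 and 75.3 CPM in rh27-2 root tips, against 61.3, 55.4 and 59.0 CPM in WT root tips (0.48, edgeR adjusted p = 3.78e-05). For both genes the lowest rh27-2 root library lay above the highest WT root library. In shoot apices IAA1 was not called (0.27), nor was IAA2 (-0.49, edgeR adjusted p = 0.0768), although IAA2 was called lower with the replicate block (-0.50, adjusted p = 0.0123). Total-count scaling, the fit over all 12 libraries and leaving out WT replicate 3 also called IAA2 lower, while 8 of 12 alternative fits did not.

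IAA4 (AT5G43700) stood at 61.9, 61.4 and 58.8 CPM in rh27-2 root tips, against 38.8, 37.1 and 42.3 CPM in WT root tips (0.62, SE 0.064, edgeR adjusted p = 2.99e-06). In shoot apices the order was turned round, with 20.7, 16.4 and 15.3 CPM in rh27-2 against 44.5, 32.2 and 36.7 CPM in WT (-1.17, SE 0.17, edgeR adjusted p = 0.00277). Neither pair overlapped, and the effects differed by 1.74 (edgeR adjusted p = 4.02e-05). IAA3 (AT1G04240), known as SHY2 and as a brake on the size of the root meristem, went the other way in root tips. It stood at 5.51, 3.77 and 4.41 CPM in rh27-2 root tips, against 11.7, 12.8 and 13.8 CPM in WT root tips (-1.49, SE 0.15, edgeR adjusted p = 1.67e-06). The locus that overlaps it, AT1G04230, rose by 0.50 there. In shoot apices IAA3 did not pass (0.02, edgeR adjusted p = 0.967), with overlapping groups at 12.9, 8.23 and 5.33 CPM in rh27-2 and 9.35, 6.72 and 9.01 CPM in WT.

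IAA5, IAA6 and IAA19 form a second group of auxin-induced genes. IAA5 (AT1G15580) stood at 1.71, 1.52 and 1.40 CPM in rh27-2 shoot apices against 0.547, 0.407 and 0.218 CPM in WT shoot apices. It was called higher there (1.91, SE 0.37, edgeR adjusted p = 0.00722) and, less widely, in root tips (0.66, edgeR adjusted p = 0.0205), where the call was lost with DESeq2, without WT replicate 1 and without rh27-2 replicate 2. The overlapping cyclin gene CYCA2;3 fell by 1.72 in rh27-2 shoot apices. IAA6 (AT1G52830) had 0.367, 0.258 and 0.441 CPM in rh27-2 root tips and 0.732, 0.811 and 2.06 CPM in WT root tips (-1.71, SE 0.49, edgeR adjusted p = 0.008). WT replicate 3 stands well above the other WT libraries, and without it the log2 fold change was -1.1 and was not called (edgeR adjusted p = 0.0579). IAA19 (AT3G15540), known as MSG2 from tropic growth of the hypocotyl, was called higher in rh27-2 shoot apices, at 28.3, 21.8 and 31.2 CPM against 10.6, 15 and 18.1 CPM in WT (0.83, edgeR adjusted p = 0.0296). It lost that call in 4 of the 6 fits that leave out a library, with adjusted p of 0.0582 to 0.0921.

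In the group of IAA7, IAA14, IAA16 and IAA17, the changes in shoot apices were the wider ones. IAA7 (AT3G23050), known as AXR2 from auxin-resistant mutants, stood at 473, 388 and 494 CPM in rh27-2 shoot apices, against 171, 158 and 204 CPM in WT shoot apices (1.28, SE 0.16, edgeR adjusted p = 0.00187). Root tips, at 97.9, 116 and 102 CPM in rh27-2 and 107, 114 and 117 CPM in WT, overlapped (-0.10, edgeR adjusted p = 0.186). IAA17 (AT1G04250), known as AXR3 from mutants with altered root gravitropism, moved in opposite directions. It stood at 24.4, 31.4 and 38.5 CPM in rh27-2 shoot apices, against 10.9, 10.7 and 9.12 CPM in WT shoot apices (1.56, SE 0.18, edgeR adjusted p = 0.00149). In root tips it stood at 122, 118 and 123 CPM in rh27-2, against 183, 174 and 211 CPM in WT (-0.65, SE 0.066, edgeR adjusted p = 3.24e-06). Neither pair of groups overlapped. IAA14 (AT4G14550), known as SLR from mutants that form no lateral roots, and IAA16 (AT3G04730) were called in neither tissue.

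IAA28 (AT5G25890), which acts in the choice of lateral root founder cells, was, like IAA17, called in opposite directions. In shoot apices it stood at 24.6, 43.0 and 42.3 CPM in rh27-2, against 9.29, 14.4 and 8.19 CPM in WT (1.72, SE 0.29, edgeR adjusted p = 0.00468). In root tips it stood at 111, 116 and 117 CPM in rh27-2, against 156, 153 and 163 CPM in WT (-0.46, SE 0.049, edgeR adjusted p = 3.63e-06). The groups did not overlap in either tissue, and the root value was not called in the fit over all 12 libraries (-0.45, edgeR adjusted p = 0.0958). IAA18 (AT1G51950), which has a role in patterning the embryo, stood at 74.6, 97.8 and 92.5 CPM in rh27-2 shoot apices against 54.5, 58.3 and 47.6 CPM in WT (0.66, edgeR adjusted p = 0.00905). It did not pass in root tips (-0.16, edgeR adjusted p = 0.27). IAA29 (AT4G32280), which is induced in shade, was called in neither tissue.

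IAA12 (AT1G04550), known as BODENLOS and as the partner repressor of ARF5 in the embryo, and its relative IAA13 (AT2G33310) were called higher in root tips and lower in shoot apices. IAA12 stood at 15.4, 14.6 and 16.5 CPM in rh27-2 root tips, against 12.5, 13.4 and 11.4 CPM in WT root tips (0.31, edgeR adjusted p = 0.0144). In shoot apices it stood at 17.5, 16.3 and 14.7 CPM in rh27-2, against 26.3, 23 and 25 CPM in WT (-0.68, edgeR adjusted p = 0.00569). The groups did not overlap in either tissue, though the root call was lost without replicate 3 of either genotype (adjusted p of 0.057 and 0.0572). IAA13 gave 0.35 in root tips (edgeR adjusted p = 0.000719) and -0.67 in shoot apices (edgeR adjusted p = 0.0488), where the groups overlap and 4 of the 6 fits that leave out a library did not call it. IAA11 (AT4G28640) was lower in both tissues, by 0.36 in root tips and by 1.13 in shoot apices on the log2 scale, and IAA10 (AT1G04100) was called in neither. The root call of IAA11 was lost with total-count scaling, with DESeq2 and in the fit over all 12 libraries (adjusted p of 0.0526 to 0.0616), and the root call of IAA13 in the last of these (edgeR adjusted p = 0.102). The locus that overlaps IAA11, AT4G28650, fell by 0.95 in rh27-2 root tips.

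The 6 non-canonical genes had few counts, and 3 of them could be tested in root tips and 2 in shoot apices. IAA30 (AT3G62100) stood at 0.614, 0.108 and 0.0702 CPM in rh27-2 shoot apices, against 2.37, 2.70 and 1.09 CPM in WT shoot apices. The groups did not overlap, and its log2 fold change of -3.02 (SE 0.70, edgeR adjusted p = 0.0139) was lost without rh27-2 replicate 2 (adjusted p = 0.0604). Its rise in root tips (0.91, edgeR adjusted p = 0.0371) was lost with DESeq2, with the fit over all 12 libraries and without any one of 4 libraries. IAA32 (AT2G01200), which acts in the apical hook, was higher in rh27-2 shoot apices, at 2.39, 1.25 and 2.53 CPM against 0.729, 0.458 and 0.710 CPM in WT (1.62, edgeR adjusted p = 0.0156), a call lost without rh27-2 replicate 3 (adjusted p = 0.0564). IAA31 (AT3G17600) was called lower in root tips (-0.58, edgeR adjusted p = 0.0426), but the groups overlap and 8 alternative fits did not call it. IAA33 (AT5G57420) was not called in root tips. IAA20 (AT2G46990) and IAA34 (AT1G15050) had too few counts in either tissue.

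**Figure D2:**
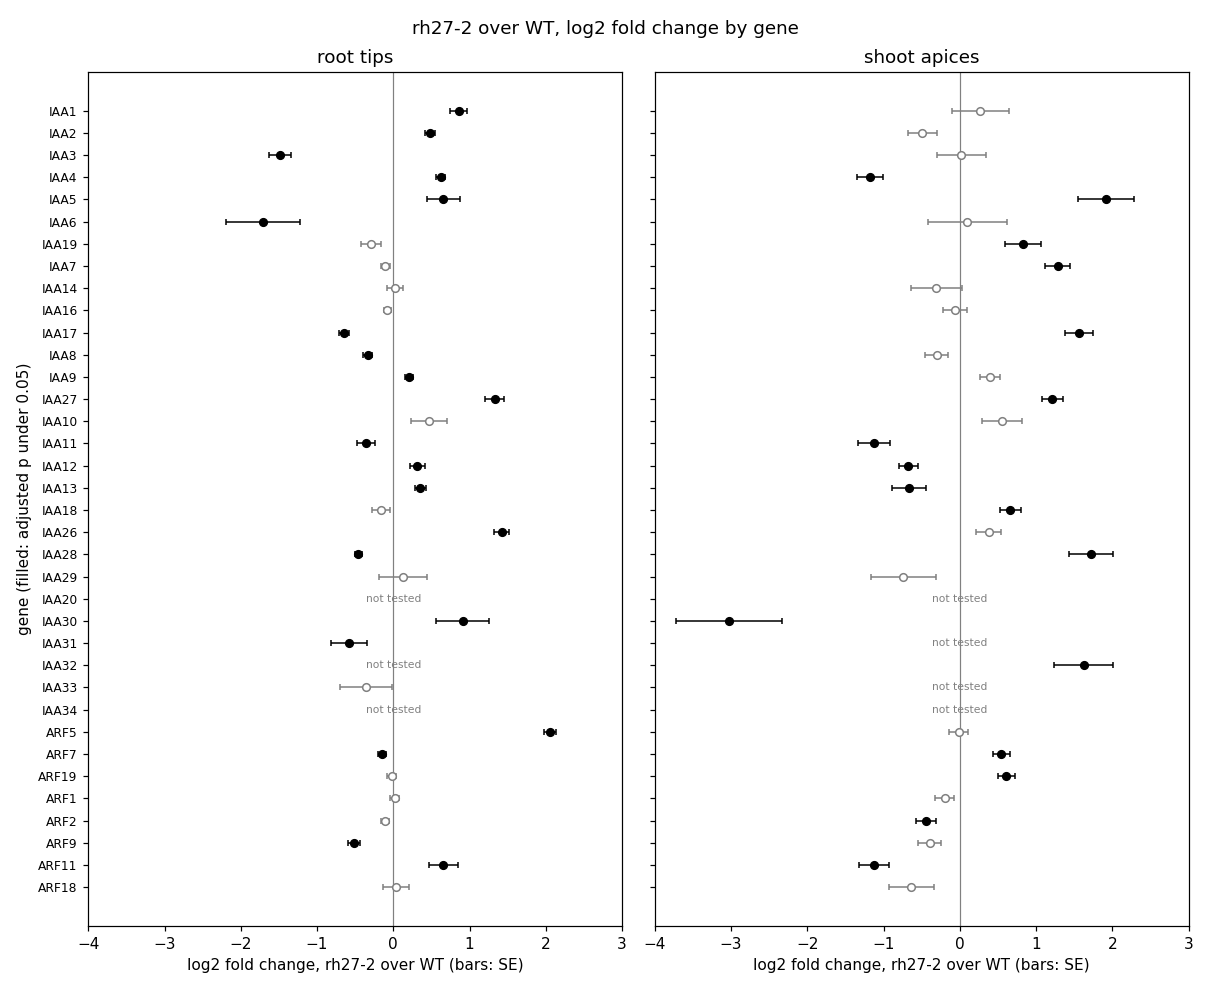
Log2 fold change of each gene in rh27-2 over WT, in root tips (left) and in shoot apices (right). Bars are SE, filled points were called at an adjusted p under 0.05, and genes with too few counts are marked. ARF5 has the highest value in root tips (2.05) and lies near 0 in shoot apices, while IAA17 and IAA28 lie below 0 in root tips and above 0 in shoot apices.

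In shoot apices as a whole, 32 of the 36 genes were tested, and 10 were called higher and 7 lower in rh27-2, which is 31.2% and 21.9% of those tested. Over all 18972 loci tested there, 21.1% were called higher and 19.8% lower. The median log2 fold change of the members was 0.002, against -0.025 over all loci. Without rh27-2 replicate 2, 4 members were called lower in place of 7, and over all loci 1960 in place of 3762. Shoot tissue also differed in its cell markers. All 5 xylem markers rose, with sums of 304 to 385 CPM in rh27-2 shoot apices and 98.3 to 108 CPM in WT shoot apices. The 4 phloem markers summed to 147 to 187 CPM in rh27-2 and 57.2 to 81.5 CPM in WT. The 5 leaf mesophyll markers summed to 3410 to 8830 CPM in rh27-2 and 11700 to 13800 CPM in WT. In root tips the 5 xylem markers all fell, to 397 to 427 CPM in rh27-2 against 556 to 655 CPM in WT, and so did the 4 root hair and epidermis markers, to 113 to 116 CPM against 263 to 302 CPM. The 4 phloem markers summed to 73.1 to 78 CPM in rh27-2 root tips and 88.5 to 117 CPM in WT root tips. Of these phloem markers, 1 was called higher and 2 lower in root tips. Of the 5 leaf mesophyll markers, 4 were tested in root tips, where 1 was called higher and none lower. The part of these shifts in the changes of the Aux/IAA and ARF genes was not tested.

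The difference between the tissues was tested directly as the interaction of genotype and tissue, fitted to all 12 libraries. Of 35 members tested, 10 had a higher and 9 a lower fold change in root tips than in shoot apices. Over all 20798 loci tested, 21.4% were called higher and 22.6% lower, against 28.6% and 25.7% of the members. The lowest values were those of IAA17 (-2.26) and IAA28 (-2.24), and the highest that of IAA30 (3.88), followed by ARF5. Among the 31 members tested in both tissues, 8 were called in opposite directions and 3 in the same direction. ARF7, IAA17 and IAA28 were lower in root tips and higher in shoot apices. IAA4, IAA12, IAA13, IAA30 and ARF11 were higher in root tips and lower in shoot apices. Those called the same way were IAA5 and IAA27, both higher, and IAA11, lower. The opposite calls are 25.8% of the members tested in both, against 9.87% of the 17692 loci tested in both, and the same-way calls are 9.68% of the members, against 15.1% of the loci. In the edgeR fits over all 12 libraries, 5 of 35 members were called in opposite directions and 4 in the same direction (14.3% and 11.4%, against 9.25% and 14.4% of the loci). With DESeq2 these were 6 and 2 of 31 (19.4% and 6.45%, against 10% and 15.4% of the loci). The replicate block gave 9 and 5 of 31 (29% and 16.1%, against 11.4% and 17.2%). Size factors by median of ratios gave 8 and 4 of 31 (25.8% and 12.9%, against 9.91% and 15.2%).

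In WT, most members differed between the organs, in shares near those of all loci tested. Of 34 tested, 13 were higher and 14 lower in root tips than in shoot apices, or 38.2% and 41.2%. Over all 19938 loci tested in WT, 36.3% were higher and 37.9% lower. Higher in WT root tips by the widest margins outside the non-canonical genes were IAA17 (4.20, edgeR adjusted p = 1.85e-07) and IAA28 (3.88, edgeR adjusted p = 2.02e-06). Both organs were closer in rh27-2, where IAA17 averaged 121 CPM in root tips and 31.4 CPM in shoot apices, against 189 CPM and 10.2 CPM in those organs of WT. IAA31 and IAA33 were root genes in these libraries, with 244 and 79 counts summed over the WT root libraries and 11 and 2 counts over the WT shoot libraries. After scaling for depth the ratio was 22.7 for IAA31 (95% interval 12.5 to 46.2) and 40.5 for IAA33 (95% interval 10.9 to 340), where the intervals cover counting error only. Lower in WT root tips were 4 of the 5 repressor ARFs, with log2 differences of -3.99 for ARF18, -3.20 for ARF11, -1.74 for ARF2 and -1.58 for ARF1. ARF9, the other repressor, did not pass (0.24, edgeR adjusted p = 0.159). Among the activators, ARF5 was lower in WT root tips (-1.72, edgeR adjusted p = 1.61e-05), and ARF7 (0.35) and ARF19 (0.78) were higher. IAA18 (-2.37), IAA26 (-2.13) and IAA27 (-1.58) were lower in WT root tips.

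**Figure D3:**
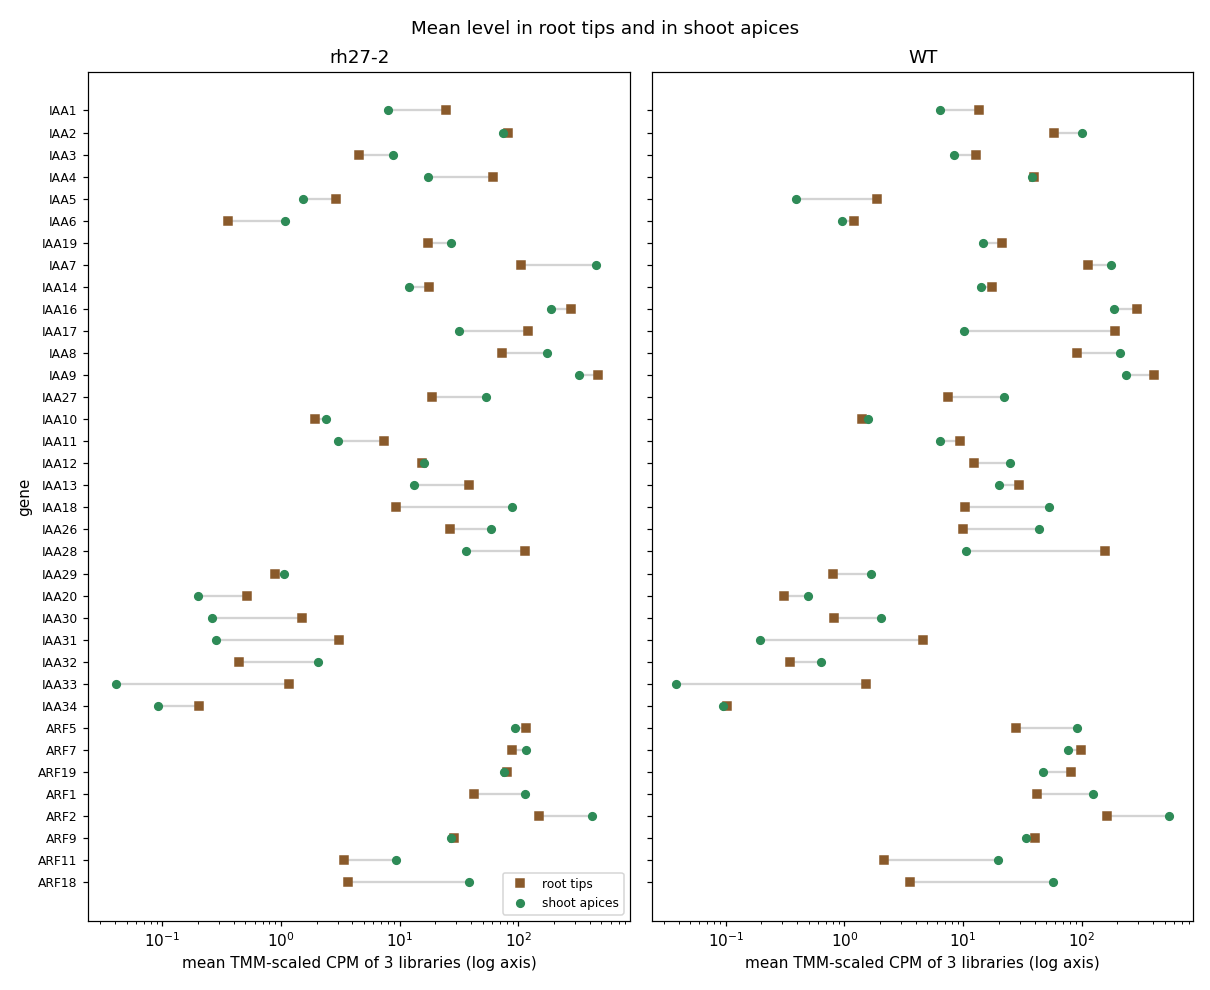
Mean TMM-scaled CPM of each gene in root tips (squares) and shoot apices (circles), in rh27-2 (left) and WT (right), on a log axis (n = 3 libraries each). IAA17 and IAA28 have wide gaps between organs in WT and narrower ones in rh27-2. The ARF5 gap seen in WT is nearly closed in rh27-2, with 116 CPM in root tips and 94.6 CPM in shoot apices.

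Some members sit side by side on the chromosome with no protein-coding gene between them. In the pair IAA3 and IAA17, both genes fell in rh27-2 root tips, and IAA17 alone was called in shoot apices. In the pair IAA2 and IAA7, IAA2 rose in root tips and IAA7 rose in shoot apices, each without a call for its neighbour. In the pair IAA1 and IAA14, IAA1 rose in root tips and IAA14 was not called. Whether the neighbours' effects differ was not tested. Of the 36 genes, 13 overlap another locus in the annotation and 10 overlap one with counts, and the strand of counting is not given, so reads of the overlapping parts cannot be told apart.

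Around these 2 families, other parts of the pathway were counted. The lists of these parts were written with earlier results of these data known, so their shares describe the lists and are no independent test. Their counts stand against the shares of all loci given above, 31.3% higher and 30.8% lower in root tips, and 21.1% higher and 19.8% lower in shoot apices. Of the 6 TIR1/AFB receptors, which bind auxin together with Aux/IAA proteins, 3 were lower and none higher in rh27-2 root tips. These were AFB1 (GRH1, -0.68, edgeR adjusted p = 5.06e-07), AFB2 (-0.29) and TIR1 (-0.18). The call of TIR1 was lost with total-count scaling (-0.09, edgeR adjusted p = 0.135), and in the fit over all 12 libraries only AFB2 was called (edgeR adjusted p of 0.326 for TIR1 and 0.0973 for AFB1). In shoot apices AFB5 (-0.42) and AFB3 (-0.40) were lower, and neither was called without WT replicate 1 or without any one of the 3 rh27-2 libraries. TIR1 was called lower there with the replicate block (-0.49, edgeR adjusted p = 0.0211) and in the fit over all 12 libraries (-0.43, edgeR adjusted p = 0.0239). Of 5 TOPLESS co-repressor genes, TPR3 was higher in rh27-2 root tips (0.80, edgeR adjusted p = 4.02e-07) and TPL lower (-0.14). The TPL call was lost with total-count scaling (-0.05, edgeR adjusted p = 0.418), with DESeq2 and in the fit over all 12 libraries. It was also lost without WT replicate 3 and without rh27-2 replicate 1 or 3. In shoot apices edgeR called none of them, with 1 at an unadjusted p under 0.05, and DESeq2 called none. Of 7 SCF and neddylation factors, AXR1 was higher (0.21) and SGT1B lower (-0.32) in root tips, and RCE1 was higher in shoot apices (0.50).

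Among the 7 ARFs listed as having miRNA or tasiRNA sites, ARF6, an activator and a target of miR167, was higher in both tissues (0.87 in root tips, edgeR adjusted p = 5.22e-08, and 0.91 in shoot apices, edgeR adjusted p = 0.00565). In all, 3 of these ARFs were higher and 2 lower in root tips, and 3 were higher and 1 lower in shoot apices. The lower count in root tips was 1 without WT replicate 1 or 2 or rh27-2 replicate 2 or 3, and 3 without WT replicate 3, and the fit over all 12 libraries called 1 higher and 1 lower. The lower count in shoot apices was 0 without WT replicate 1 or 3 or rh27-2 replicate 2 or 3, and 2 without rh27-2 replicate 1. Of the 14 genes of auxin synthesis 8 were tested in each tissue. In root tips 4 were higher and 1 lower, with YUC2 at 2.27 and YUC3 at -1.02. The level of YUC2 was low there, at a mean of 1.68 CPM in rh27-2 and 0.361 CPM in WT. In shoot apices none was higher and 7 were lower, or 87.5% of those tested against 19.8% of all loci, among them TAA1, an enzyme of the first step (-2.42, edgeR adjusted p = 0.00116), TAR2 (-1.58) and YUC2, which averaged 0.018 CPM in rh27-2 and 1.34 CPM in WT. Without rh27-2 replicate 2 the lower calls numbered 3, while those over all loci fell from 3762 to 1960.

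Genes that respond to auxin or are targets of the activator ARFs were counted as well. Their lists, too, were written with earlier results of these data known, so the shares below are no independent test. Of 6 genes listed as ARF5 targets, 5 were higher in rh27-2 root tips, or 83.3% against 31.3% of all loci, including TMO5 (BHLH32, 0.85, edgeR adjusted p = 1.75e-06), HB-8 (0.84, edgeR adjusted p = 9.57e-08) and TMO6 (0.58). In shoot apices, where ARF5 was not called, 4 of them were tested and 3 were lower, namely CRF2 (-1.45), TMO6 (-0.89) and TMO5 (-0.71). Those 3 calls were all lost without rh27-2 replicate 2, a fit in which lower calls over all loci fell from 3762 to 1960. Of the 3, 1 was left without rh27-2 replicate 3, WT replicate 2 or WT replicate 3. In root tips 3 to 5 of the list were called higher in every alternative fit. Of 4 LBD genes that act downstream of ARF7 and ARF19, LBD16 (1.1) and LBD33 (2.44) were higher in root tips, and LBD18 was higher in shoot apices (1.82), the 1 gene of the list tested there. Levels were low for LBD33, at a mean of 0.848 CPM in rh27-2 root tips and 0.148 CPM in WT root tips. LBD18 averaged 1.37 CPM in rh27-2 shoot apices and 0.366 CPM in WT shoot apices. The 5 GH3 genes, for enzymes that conjugate auxin to amino acids, split in both tissues. In root tips 2 were higher, GH3.3 (3.32, edgeR adjusted p = 4.63e-09) and GH3.1 (1.1), and 2 were lower, among them GH3.2 (BRU6, -0.59). The other lower gene had the lowest value of the list there, -1.03. GH3.2 was not called in the fit over all 12 libraries (edgeR adjusted p = 0.0739). In shoot apices GH3.1 was higher (2.27) and 3 were lower, among them GH3.2 (-2.72) and GH3.5 (WES1, -2.08). Of 10 SAUR genes, 2 were tested in root tips, where SAUR9 was higher (2.61). In shoot apices 3 were tested and edgeR called none, with 1 higher and 1 lower at an unadjusted p under 0.05, as with DESeq2 after adjustment. The replicate block, which takes shoot libraries as pairs, called both, SAUR9 higher (1.60, edgeR adjusted p = 0.00517) and AT4G38860 lower (-1.35, edgeR adjusted p = 0.0291). The fit over all 12 libraries, without pairs, also called SAUR9 (1.66, edgeR adjusted p = 0.00769) and AT4G38860 (-1.42, edgeR adjusted p = 0.0301). So did the fit without WT replicate 2.

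**Figure D4:**
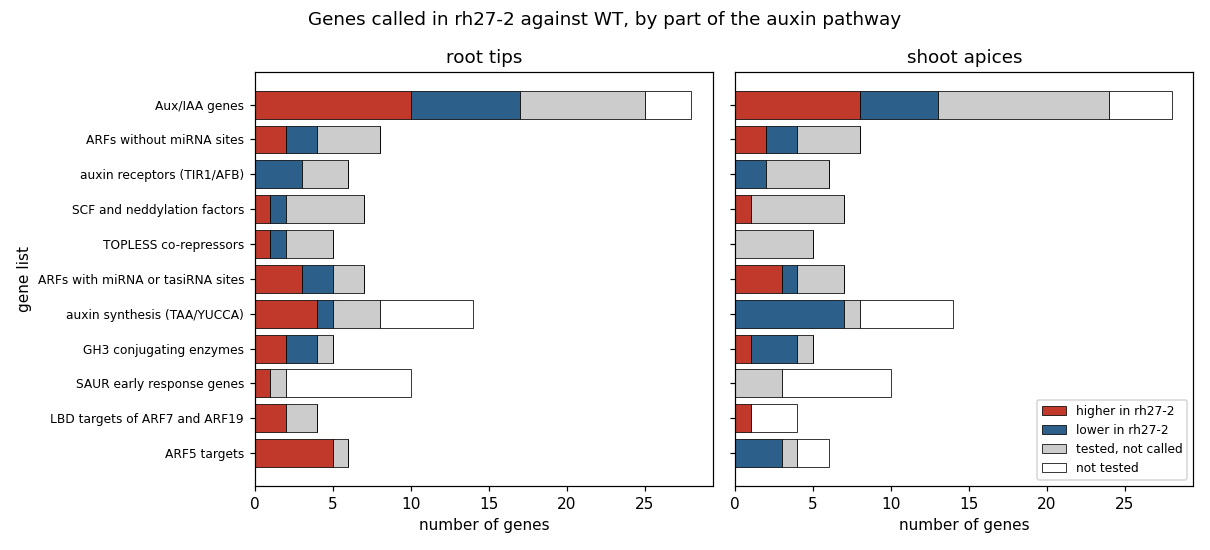
Number of genes called higher (red) or lower (blue), tested but not called (grey) or not tested (white) in rh27-2 against WT, for the Aux/IAA genes, the ARFs described here and 9 further lists, in root tips (left) and shoot apices (right). The ARF5 targets are mostly red in root tips (5 of 6) and the synthesis genes mostly blue among those tested in shoot apices (7 of 8).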

How the data were processed

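mRNA of 12 libraries was analysed, with raw counts per locus as deposited by the authors. The submitters' processing notes name TopHat2, HTSeq, edgeR, Bowtie2 and the TAIR10 build, with no roles. The strand of counting is not given in the sources used here, and the small RNA files were not used here. Counts were fitted with edgeR 4.0.16 in R 4.3.3 (loci kept by filterByExpr at 10 counts, TMM scaling, robust quasi-likelihood fits, Benjamini-Hochberg adjustment over all loci tested, calls at 0.05), in each tissue apart, in WT between organs, and over 12 libraries for the interaction. An SE is the log2 fold change over the root of its F statistic. Steps were tested on simulated data. Names came from a RefSeq table of TAIR10.1, which matched 33056 of 33341 loci.

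The members, gene lists and markers were chosen with earlier results of these data known. All 36 members may be named, with up to 3 called genes per further list and tissue by adjusted p, RH27 and the markers. Genes shown by library in a plot, and list genes named for an alternative fit, were picked after their values were seen.

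Before fits were compared, rh27-2 and WT libraries of one number were checked for shared deviations from their group means by correlation over loci. The values were 0.448, 0.426 and 0.16 in shoot apices. Libraries of different numbers gave -0.472 to 0.287 there. The value of 0.287, for rh27-2 replicate 3 with WT replicate 2, lay above the 0.16 of the same-numbered replicate 3 libraries. The replicate block took the numbers to pair libraries there, on the same-number correlations alone, since the labels state no pairing. For replicate 3 the correlations do not single out the same-numbered library. The main fits took no pairing into account. Alternatives were DESeq2 1.42.0, other scalings, no filter, a replicate block, a fit over all 12 libraries and leaving out each library. No pair of replicates agreed within sampling noise.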

Additional observations from a re-analysis of the deposited data

Results flagged for a closer look

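For 19 of the 35 genes tested, the log2 fold change of rh27-2 over WT in root tips differed from that in shoot apices, by edgeR's test of the difference itself. Over all loci tested, 21.4% were called higher and 22.6% lower in the same contrast, against 28.6% and 25.7% of these genes. Each value below is the root tip effect minus the shoot apex effect.

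The effect was higher in root tips for 10 genes. The difference was 3.88 for IAA30, 2.01 for ARF5, 1.95 for IAA20, 1.74 for IAA4, 1.72 for ARF11, 0.991 for IAA26, 0.969 for IAA13, 0.934 for IAA12, 0.915 for IAA2 and 0.715 for IAA11. ARF5 and IAA26 were called in root tips and not in shoot apices, where both were already higher in WT than in WT root tips. IAA20, with 30 and 10 counts summed over the rh27-2 root and shoot libraries and 16 and 27 over those of WT, could be tested in this contrast alone. Its call was lost without 8 of the 12 libraries in turn, with adjusted p of 0.0653 to 0.0931 under edgeR.

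The effect was lower in root tips for 9 genes. The difference was -2.26 for IAA17, -2.24 for IAA28, -1.56 for IAA3, -1.44 for IAA7, -1.32 for IAA5, -1.18 for IAA19, -0.88 for IAA18, -0.752 for ARF7 and -0.687 for ARF19. IAA17 and IAA28 were higher in WT root tips than in WT shoot apices by 4.20 and 3.88 on the log2 scale.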

How the results depend on the processing

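Of 134 member values, 36 had a changed call in at least 1 of the 12 to 17 alternative fits of their comparison. Over 53 fits with 1783 member values, 72 calls were lost and 39 gained, and no called value changed direction. Counts were too few to test IAA34 in any comparison and IAA20 within either tissue. Without rh27-2 replicate 2, 2531 genes were called higher in shoot apices, 1960 lower, and 4 members lower; leaving out each library in turn gave 2531 to 3789 genes higher, 1960 to 3908 lower and 4 to 7 members lower, against 4007, 3762 and 7. Without rh27-2 replicate 3, 2306 genes were called lower. The fit over all 12 libraries, which shares 1 spread across tissues, called 6192 genes higher in shoot apices and 5 members lower in root tips, against 9, and left AFB1, GH3.2, CRF2 and IAA28 uncalled in root tips. With total-count scaling the interaction called 6877 genes higher and 3324 lower, or 67.4% higher of those called, against 48.7%; the median of all loci there moved to 0.293, against 0.061. The same scaling gave 10 and 9 members in shoot apices and 13 and 6 in root tips. With the replicate block, 4606 genes were called higher and 4312 lower in shoot apices, and IAA2, IAA9 and IAA26 were added and none lost among the members. In root tips (correlations of same-numbered libraries 0.0668, 0.01 and -0.0345) and between WT organs (0.00905, -0.0392 and 0.0257) libraries share only a number. There the block gave 5995 and 5941 genes in root tips, left IAA31 uncalled, and between organs added IAA19 and left IAA29 uncalled. In the interaction it added IAA6 and left IAA20 uncalled.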
